A study of Mus musculus with 6 samples.

Results

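CDK6 occupied 2711 shared chromatin regions that lay in intergenic DNA far from any gene start of the GENCODE M21 annotation. They were taken from 22973 shared regions, of which they made up 11.8% (95% Wilson interval 11.4 to 12.2%). A shared region was a merged interval on chromosomes 1 to 19 or X with a peak in at least 3 of 4 anti-HA peak lists. It was called far intergenic when the summit of its strongest peak lay outside every GENCODE M21 gene body and at least 10000 bp from every transcript start. By the RefSeq annotation, 2003 of the 2711 (73.9%) were far from genes as well. For comparison, 10209 shared regions had their summit in a promoter (2000 bp before to 200 bp after a transcript start) and 2794 lay inside a gene body at the same distance of at least 10000 bp from any transcript start. The closest members to the distance limit had summits 10003, 10020 and 10046 bp from a transcript start and mean percentiles of 64.4, 78.3 and 56.0, and the nearest intergenic regions left out lay at 9995, 9995 and 9981 bp with mean percentiles of 41.6, 69.0 and 90.3.

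The cells were murine pre/pro-B lines transformed by BCR::ABL1 (p185). They were Cdk6-/- and overexpressed CDK6 with an HA tag. CDK6-WT libraries (n = 2) came from cells with the wildtype kinase and CDK6-K43M libraries (n = 2) from cells with the kinase-inactive mutant, so that every library carried both the oncogene and the deletion. Chromatin was fixed with DSG and formaldehyde and precipitated with an anti-HA antibody, and each library gave its own peak list of 34729 to 39797 peaks. Because the protein was overexpressed and the sources used here do not say whether the replicate libraries came from separate cultures or clones, p-values measure only the spread between these libraries. The comparison of the variants asks how binding at these sites differs when the kinase is inactive. Members needed a peak in at least 3 of 4 lists, so with 2 libraries per variant every member has a peak in both variants. Sites bound by only the wildtype or only the mutant protein were thus left out beforehand. For that reason the comparison cannot decide whether binding needs the kinase activity.

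CDK6 is best known as the cyclin D-dependent kinase that phosphorylates RB1 in the G1 phase, and it also sits on chromatin, where it has no DNA-binding domain of its own and is brought in by transcription factors. Regions far from gene starts in lymphoid cells are often enhancers, where lineage factors such as EBF1, PU.1 (Spi1), RUNX1 and the E proteins bind short DNA motifs. CTCF, by contrast, marks domain borders and loop anchors, and NRF-1 binds GC-rich promoters.

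The sequences under the summits show which motifs the strongest regions hold. The first 6 below are from the 8 members with a peak in all 4 lists and the highest mean percentile, without those of rank 2 and 6. The Foxo1 member is the strongest near the gene with most members, and the last 2 are the strongest that hold the CTCF or the NRF-1 motif. Each is 201 bases of the plus strand of mm10 centred on the summit, named by the nearest protein-coding start. Capitals mark matches on either strand to RUNX (TGTGGTT), ETS-C (CAGGAAGT), ETS-CG (CCGGAAGT), PU.1 (GAGGAAGT), EBF (CCCNNGGGA), the E-box CAGCTG, STAT (TTCNNNGAA), AP-1 (TGANTCA), CTCF and NRF-1 (GCGCNNGCG). In the Foxk1 and Ttll10 members only the CTCF and the NRF-1 match, respectively, is in capitals.
Il21r member (chr7:125588792-125588992): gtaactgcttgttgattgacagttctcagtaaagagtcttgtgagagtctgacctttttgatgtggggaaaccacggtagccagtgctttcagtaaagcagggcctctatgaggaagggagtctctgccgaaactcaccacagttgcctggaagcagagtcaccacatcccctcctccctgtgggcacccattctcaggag
Dapk2 member (chr9:66281530-66281730): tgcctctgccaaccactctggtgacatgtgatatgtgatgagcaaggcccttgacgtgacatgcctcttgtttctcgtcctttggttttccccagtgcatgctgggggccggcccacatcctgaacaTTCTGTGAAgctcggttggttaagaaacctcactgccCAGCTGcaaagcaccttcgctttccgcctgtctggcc
Hdhd5 member (chr6:120567559-120567759): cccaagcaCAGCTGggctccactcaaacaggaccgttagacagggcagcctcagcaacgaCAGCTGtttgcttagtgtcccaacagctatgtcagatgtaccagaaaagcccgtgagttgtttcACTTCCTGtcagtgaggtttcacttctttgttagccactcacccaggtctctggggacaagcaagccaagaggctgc
Osgin1 member (chr8:119423937-119424137): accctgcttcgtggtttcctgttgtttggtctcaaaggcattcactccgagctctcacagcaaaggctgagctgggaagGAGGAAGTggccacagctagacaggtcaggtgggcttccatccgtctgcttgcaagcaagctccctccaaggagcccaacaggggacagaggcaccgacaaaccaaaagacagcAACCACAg
Tpra1 member (chr6:88934945-88935145): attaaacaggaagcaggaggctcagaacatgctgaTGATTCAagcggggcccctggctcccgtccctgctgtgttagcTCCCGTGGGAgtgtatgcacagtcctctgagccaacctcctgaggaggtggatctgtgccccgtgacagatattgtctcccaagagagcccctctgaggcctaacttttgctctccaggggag
Parp1 member (chr1:180541357-180541557): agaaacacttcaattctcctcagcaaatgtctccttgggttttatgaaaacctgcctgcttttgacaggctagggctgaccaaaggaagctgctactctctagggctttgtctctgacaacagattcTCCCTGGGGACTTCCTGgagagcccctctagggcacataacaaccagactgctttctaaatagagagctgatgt
Foxo1 member (chr3:52443893-52444093): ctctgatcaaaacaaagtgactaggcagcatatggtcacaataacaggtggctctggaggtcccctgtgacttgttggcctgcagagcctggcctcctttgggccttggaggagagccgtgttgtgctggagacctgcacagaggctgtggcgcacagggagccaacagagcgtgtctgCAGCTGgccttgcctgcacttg
Foxk1 member (chr5:142367595-142367795): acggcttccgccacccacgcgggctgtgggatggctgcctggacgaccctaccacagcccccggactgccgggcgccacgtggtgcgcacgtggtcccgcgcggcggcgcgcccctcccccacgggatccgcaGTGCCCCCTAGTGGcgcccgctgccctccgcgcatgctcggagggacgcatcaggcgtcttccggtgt
Ttll10 member (chr4:156070314-156070514): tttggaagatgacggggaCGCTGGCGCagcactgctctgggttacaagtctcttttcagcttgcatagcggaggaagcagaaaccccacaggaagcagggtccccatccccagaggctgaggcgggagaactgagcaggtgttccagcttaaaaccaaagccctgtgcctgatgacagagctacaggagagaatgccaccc

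The strongest of them lay 14537 bp upstream of Il21r, which encodes the interleukin-21 receptor. It held no exact match to these motifs in its window, where forms with other bases were not counted. Its percentiles were 98.0 and 99.2 in CDK6-WT replicates 1 and 2 and 98.7 and 99.2 in CDK6-K43M replicates 1 and 2, where the percentile is the rank of the peak's −log10 q among all peaks of its own list. It carried 57 and 56 reads at the summit in the CDK6-WT libraries and 75 and 53 in the CDK6-K43M libraries. These percentiles lay within 1.2 points of each other. The choice by the highest mean percentile leaves little room for a difference, so this does not measure how alike the libraries are. The Dapk2 member (13256 bp downstream of the start) held a STAT match 27 bp after the summit and a CAGCTG E-box further on, and had percentiles of 98.9 and 96.4 in CDK6-WT and 98.5 and 97.9 in CDK6-K43M. The Hdhd5 member combined a pair of CAGCTG boxes with an ETS match, and the Osgin1 member a PU.1 match 21 bp before the summit with a RUNX match near the edge of the window. The Tpra1 member had an EBF and an AP-1 match and the Parp1 member an EBF match that overlapped an ETS match by 1 base. All 8 members of highest rank had a mean percentile between 97.3 and 98.8, and those of rank 2 and 6 lay near 2410131K14Rik and Tprg. The 2410131K14Rik member, with a mean percentile of 98.4, also held no exact match to these motifs in its window, and the Tprg member held a CAGCTG box.

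Lineage motifs were concentrated at the summits of the far intergenic regions. The E-box CAGCTG, which E proteins such as E2A bind, was present in 678 of 2711 windows (25%, 95% Wilson interval 23.4 to 26.7%) against 9.06% of windows of the same length 1000 bp to either side. EBF motifs were found in 14.5% (13.3 to 15.9%) against 3.08%, and RUNX motifs in 14.1% (12.9 to 15.5%) against 5.64%. PU.1 motifs were found in 7.67% against 1.38%, which is 5.55 times the flank share (95% interval 4.28 to 7.19), and the related ETS-C motif in 6.42% against 1.62% (3.95 times, 3.07 to 5.09). STAT motifs, bound by factors such as STAT5 downstream of BCR::ABL1 and cytokine receptors, were found in 11.7% against 6.27% (1.86 times, 1.61 to 2.16), and AP-1 motifs in 10.5% against 5.90%. These intervals cover counting error over regions, which are not replicates, and all libraries share the same genome. The flanks were not matched to the summits in base composition. A control of shuffled summit windows was run only for RUNX, ETS-C and NRF-1.

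Not every motif followed this course. The GATA motif AGATAAG, read by erythroid and T-cell factors, was found in 1.62% of summit windows and 2.64% of flanks (ratio 0.615, 0.440 to 0.860), and the promoter motif of NFY (CCAATCA) in 1.66% and 2.58%. Shares of the TCF/LEF motif CTTTGAT were 3.14% and 3.73%, with an interval of the ratio (0.656 to 1.08) that includes no difference. The FOX motif GTAAACA also did not stand apart from its flanks (2.84% and 2.56%), although Foxo1 was the gene with most members. A match describes letters in the window and does not show that the factor was bound there.

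**Figure D1:**
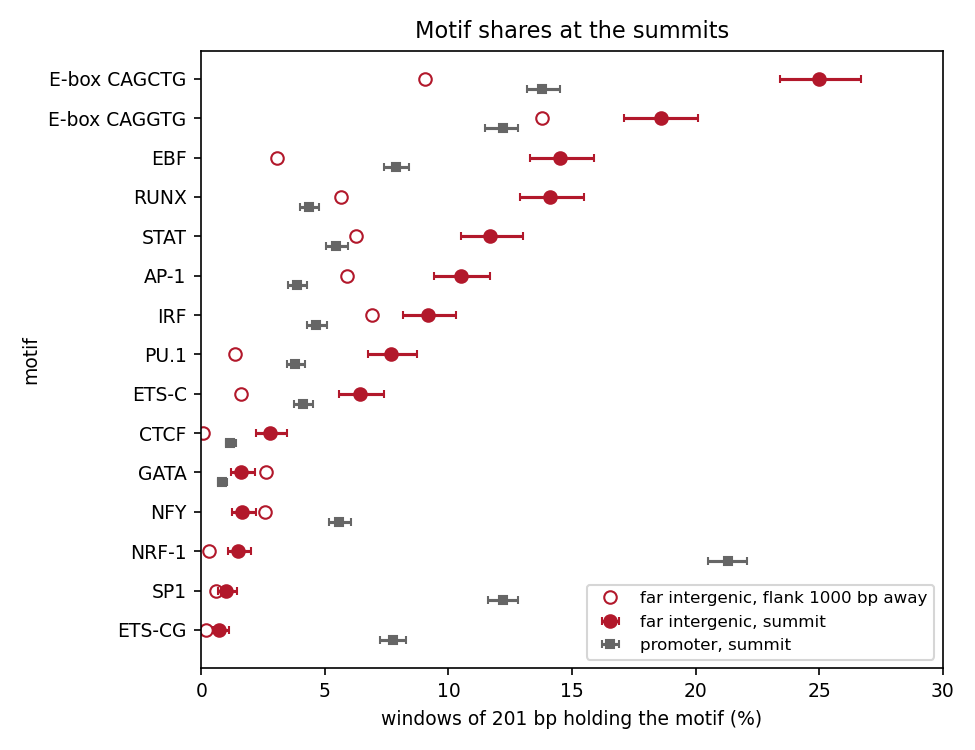
Share of 201 bp windows (x axis, %) that hold each motif (y axis) at the summits of 2711 far intergenic regions (filled circles), in windows 1000 bp to either side of them (open circles) and at the summits of 10209 promoter regions (squares). Bars are 95% Wilson intervals. The CAGCTG, EBF, RUNX, STAT and PU.1 shares of the far intergenic summits exceed both others, whereas NRF-1, SP1 and ETS-CG lie far higher at promoters.

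Promoter summits shared some of these motifs and differed in others. Against their own flanks, PU.1 was 2.86 times as frequent there (2.46 to 3.34), ETS-C 2.59 times, EBF 2.45 times and CAGCTG 1.55 times. RUNX (0.919, 0.824 to 1.03), STAT (0.855) and AP-1 (0.749) were not more frequent at promoter summits than in their flanks. RUNX motifs were 3.24 times as frequent at far intergenic summits as at promoter summits (95% interval 2.85 to 3.69), AP-1 motifs 2.70 times (2.34 to 3.13) and CTCF motifs 2.35 times (1.77 to 3.13). The NRF-1 motif was found in 1.48% of far intergenic windows and 21.3% of promoter windows, the SP1 motif GGGGCGGGG in 0.996% and 12.2%, and the ETS-CG form in 0.738% and 7.74%. Between these 2 classes the ETS family therefore split by its first bases. The ETS-C form was 1.56 times as frequent at far intergenic as at promoter summits (1.32 to 1.86). The ETS-CG form was 0.0953 times as frequent (0.0613 to 0.148). Both forms were nonetheless more frequent at far intergenic summits than in their flanks. For ETS-CG, held by only 20 members, these shares were 0.738% and 0.184% (95% interval of the ratio 1.87 to 8.53). Over all 22973 shared regions, 19.6% held CAGCTG, 11.2% EBF, 9.38% RUNX, 7.59% STAT, 6.35% PU.1, 5.56% ETS-C, 10.5% NRF-1 and 1.7% CTCF.

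Regions at the same distance inside gene bodies were closer to the far intergenic ones. The ratios of far intergenic to distal gene-body shares were 0.970 for CAGCTG (0.886 to 1.06), 1.02 for EBF (0.899 to 1.16) and 0.847 for PU.1 (0.711 to 1.01), and these intervals include 1. Shares differed for STAT (11.7% and 8.59%, ratio 1.36, 1.16 to 1.60), for CTCF (2.77% and 1.32%, ratio 2.09, 1.41 to 3.09), for NRF-1 (1.48% and 0.573%, ratio 2.58, 1.45 to 4.59), and for SP1 (0.996% and 0.358%, ratio 2.78, 1.35 to 5.74). The 25 motifs were compared without adjustment, and these ratios are a description.

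Most of these motifs were densest in the bin at the summit. EBF matches reached 1.16 per kb in the 50 bp bin at the summit against 0.148 per kb between 500 and 1000 bp away, and PU.1 matches 0.575 against 0.0681 per kb. CAGCTG reached 1.87 against 0.504 per kb and RUNX 0.959 against 0.272 per kb, and STAT rose less, from 0.344 to 0.745 per kb. CTCF matches were few and, of the 10 motifs profiled, the most concentrated, with 0.243 per kb at the summit and 0.00437 per kb further out. All words of 8 bases were also ranked on the odd-numbered chromosomes without use of the motif list, and words with the ETS core GGAA led. On the 1241 members of the remaining chromosomes ACAGGAAG was then found in 8.62% of windows and 2.30% of flanks, the PU.1 word GAGGAAGT in 7.82% and 1.41%, and the RUNX word AAACCACA in 7.82% and 1.45%.

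**Figure D2:**
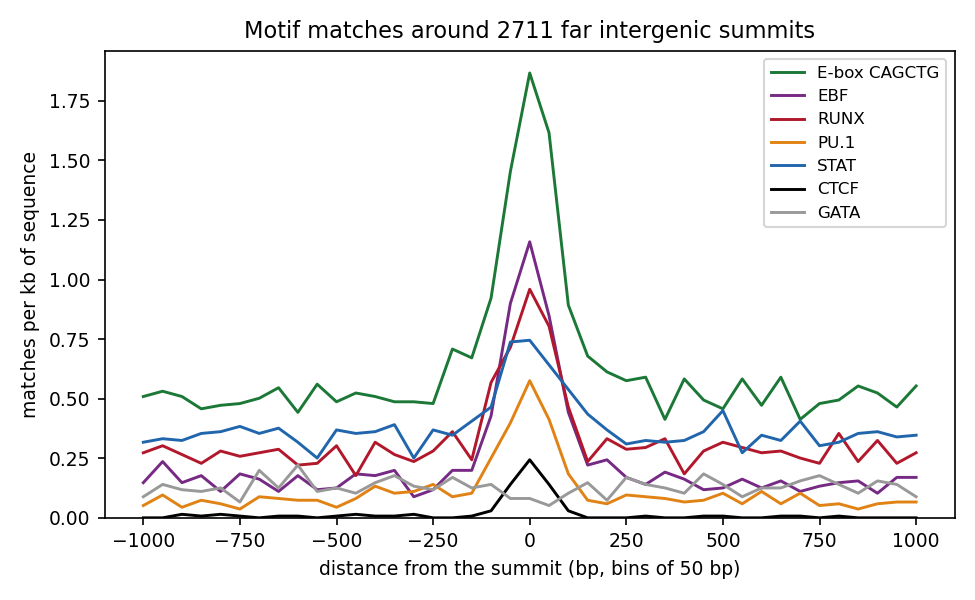
Matches per kb of sequence (y axis) in 50 bp bins by distance from the summit (x axis, bp) over 2711 far intergenic regions. CAGCTG, EBF, RUNX, PU.1, STAT and CTCF peak in the bins next to 0, with 1.87 CAGCTG matches per kb at the summit, and GATA does not.

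A little over 50% of the members held at least 1 of 4 lymphoid motif families. RUNX, an ETS or PU.1 form, EBF or CAGCTG was present in 1426 members (52.6%) against 19.3% of flanks, and 372 members (13.7%) held at least 2 of these families against 1.59% of flanks. This was not particular to them, since distal gene-body summits held at least 1 family in 57.6% and at least 2 in 13.5%. For promoter summits the shares were 35.1% and 5.51%. Members with 3 or more families (n = 35) had a peak in all 4 lists in 85.7% of cases and median percentiles of 65.1 and 79.0 in CDK6-WT replicates 1 and 2 and 71.3 and 70.5 in CDK6-K43M. Members with no family (n = 1285) had a peak in all 4 lists in 65.8% of cases and median percentiles of 55.2, 63.4, 57.4 and 67.1 in the same order. The group with 3 or more families ranked higher in each of the 4 libraries. When the 1866 members with 4 peaks were divided by mean percentile into 3 groups of 622, the CAGCTG box was found in 22.5% (19.4 to 26%) of the lowest group, 26.2% of the middle one and 30.9% (27.4 to 34.6%) of the highest.

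The summits were also richer in GC and poorer in repeats than their flanks. GC content was 50.1% ± 6.29 (SD over 2711 windows) at the summit and 44.9% in the flanks, and 62.1% at promoter summits. Bases marked as repeats in the reference (soft-masked) made up 11.2% of the summit windows and 28.5% of the flanks, and 90 members (3.32%) had their window more than 50% masked. Of those 90, 48.9% had a peak in all 4 lists, against 70.4% of the 1199 members without a masked base.

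A peak was present in all 4 lists for 1866 members (68.8%, 95% Wilson interval 67.1 to 70.5%), against 71.3% of all shared regions, 74.5% of promoter regions and 70.2% of distal gene-body regions. Of the 845 members with 3 peaks, 282 lacked the CDK6-WT replicate 1 peak, 246 the CDK6-WT replicate 2 peak, 207 the CDK6-K43M replicate 2 peak and 110 the CDK6-K43M replicate 1 peak. The list missing least often was therefore CDK6-K43M replicate 1, which is also the longest list. At member summits the median number of reads was 22 and 22 in CDK6-WT replicates 1 and 2 and 27 and 19 in CDK6-K43M, and the median fold enrichment was 7.18, 6.62, 7.09 and 6.46 in the same order. In these bulk libraries, binding in more cells and more binding per cell cannot be told apart.

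The far intergenic regions ranked differently against promoters in the 2 replicate numbers, in the same way for both variants. Their median percentile was 58.2 in CDK6-WT and 59.8 in CDK6-K43M of replicate 1, and 66.4 and 68.9 in replicate 2. Promoter regions had medians of 76.1 and 78.5 in replicate 1 and 56.1 and 58.4 in replicate 2. The far intergenic regions thus differed from promoters by -17.9 and -18.7 percentile points in replicate 1 and by 10.3 and 10.6 points in replicate 2. The mean difference over the 4 libraries was -3.94 ± 16.6 points (SD, n = 4, exact sign-flip permutation p = 0.750, two-sided, smallest possible 0.13), and it turned positive without CDK6-WT replicate 1 (0.268) or without CDK6-K43M replicate 1 (1.00). The difference shifted by 28.8 points between the replicate numbers (exact permutation p = 0.333, the smallest that 2 libraries against 2 allow).

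Enrichment and width moved with rank. The median fold enrichment of far intergenic regions minus that of promoter regions was -2.34 and -2.55 in replicate 1 and 0.507 and 0.617 in replicate 2 (CDK6-WT first), with an exact sign-flip permutation p of 0.50 for the mean of -0.942 ± 1.74 (SD, n = 4). Their peaks were narrower than promoter peaks by a median of 150 bp and 202 bp in replicate 1, with 333 and 370 bp against 483 and 572 bp, and wider by 15 and 37 bp in replicate 2, with 362 and 372 bp against 347 and 335 bp (exact sign-flip permutation p = 0.50 for the mean of -75.0 bp, n = 4). Distal gene-body regions shifted further than the far intergenic ones, with medians of 54.6 and 57.8 in replicate 1 and 72.2 and 75.9 in replicate 2. Far intergenic regions stood 3.62 and 2.03 percentile points above them in replicate 1, and in replicate 2 the differences were -5.83 and -6.96 points. Percentiles are ranks within a list, so a class that ranks higher lowers others.

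**Figure D3:**
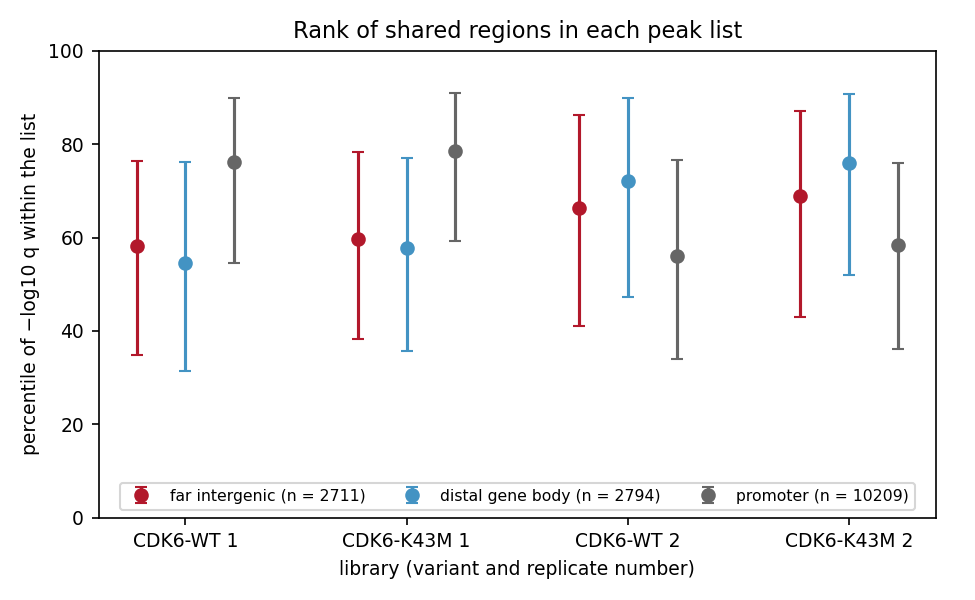
Percentile of −log10 q within its own list (y axis) of far intergenic, distal gene-body and promoter regions in each library (x axis). Points are medians over regions with a peak and bars run from the 25th to the 75th percentile of the regions. Promoters have the highest medians in both replicate 1 libraries (76.1 and 78.5) and the lowest in both replicate 2 libraries (56.1 and 58.4).

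Counted region by region, 764 of the 1866 members with 4 peaks (40.9%) had both replicate 2 percentiles above both replicate 1 percentiles, against 29.7% of all shared regions with 4 peaks, and 460 (24.7%) had the opposite order, against 41.1%. Among promoter regions the shares were 13.4% and 62.6%. The order of members within a list was also shared within a replicate number more than within a variant. Spearman's rho of the members' percentiles was 0.783 between the replicate 1 libraries and 0.763 between the replicate 2 libraries, and 0.280 between the CDK6-WT and 0.236 between the CDK6-K43M libraries (n = 1866 regions, a description, since the regions are not independent). The labels do not say what the replicate number stands for.

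CpG-rich members ranked lower in replicate 2, unlike the members as a whole. The 75 CpG-rich members (observed to expected CpG of at least 0.6 and GC of at least 50% over 250 bp to each side, a split chosen after the values were seen) had median percentiles of 68.2 and 77.7 in replicate 1 and 57.6 and 55.4 in replicate 2. CpG-rich promoter regions (n = 6810) had 81.8 and 83.8 in replicate 1 and 56.1 and 55.4 in replicate 2, and CpG-poor promoter regions (n = 3399) 60.6 and 64.4 in replicate 1 and 59.7 and 61.2 in replicate 2. The median percentile of far intergenic regions minus that of CpG-poor promoters was -2.43 and -4.57 points in replicate 1 and 6.68 and 7.70 points in replicate 2. The shift between replicate numbers was 10.7 points against CpG-poor promoters and 35.7 points against CpG-rich ones (exact permutation p = 0.333 for each).

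The 40 members with the NRF-1 motif and the 75 with the CTCF motif also ranked lower in replicate 2. They are in part the same regions as the CpG-rich members, of which 21.3% held NRF-1 and 6.67% CTCF. Among the other members these shares were 0.910% and 2.66%. Members with NRF-1 had median percentiles of 78.9 and 79.8 in replicate 1 and 50.1 and 61.6 in replicate 2. The strongest of them, 11000 bp from Ttll10, had 47 and 66 summit reads in replicate 1 and 37 and 34 in replicate 2. Its percentiles were 95.8 and 98.5 in replicate 1 and 91.0 and 91.2 in replicate 2. Members with CTCF had medians of 52.1 and 56.5 in replicate 1 and 25.5 and 39.1 in replicate 2, and only 32 of the 75 (42.7%) had a peak in all 4 lists, against 69.6% of the other members. All 75 had a peak in CDK6-K43M replicate 1 and 70 in CDK6-WT replicate 1, but 55 and 57 in the replicate 2 lists of CDK6-WT and CDK6-K43M. The member 33802 bp from Foxk1, the strongest with CTCF, had 64 and 80 reads in replicate 1 and 24 and 25 in replicate 2, and its groups by replicate number did not overlap. Members with CTCF ranked below the other members in each of the 4 libraries, with differences of -6.47, -40.9, -3.47 and -29.8 points in CDK6-WT replicates 1 and 2 and CDK6-K43M replicates 1 and 2 (exact sign-flip permutation p = 0.13, the smallest that 4 libraries allow). These motif splits were chosen after the values were seen.

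Seen from the other side, members of higher rank in replicate 2 seldom held the NRF-1 or the CTCF motif. This restates the percentiles above and is not further support. These sets also needed 4 peaks, which only 32 of the 75 members with CTCF had. Among all 1866 members with 4 peaks, 1.66% held NRF-1 and 1.71% CTCF. NRF-1 was found in 3 of the 764 members that were higher in both replicate 2 libraries (0.393%, 0.134 to 1.15%) and in 16 of the 460 higher in both replicate 1 libraries (3.48%, 2.15 to 5.57%), and the CTCF counts were 4 and 16. The NFY motif, also found more at promoters, was in 15 of the 764 and 9 of the 460, and the 45 members that held it had median percentiles of 49.2 and 53.8 in replicate 1 and 61.9 and 68.9 in replicate 2. EBF motifs were in 12.2% (10.0 to 14.7%) of the former and 20.2% (16.8 to 24.1%) of the latter. RUNX motifs were in 16.5% and 14.3% and STAT motifs in 13.4% and 10.4%, and those intervals overlap. RUNX, PU.1, CAGCTG and STAT are thus found on both sides of the split.

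**Figure D4:**
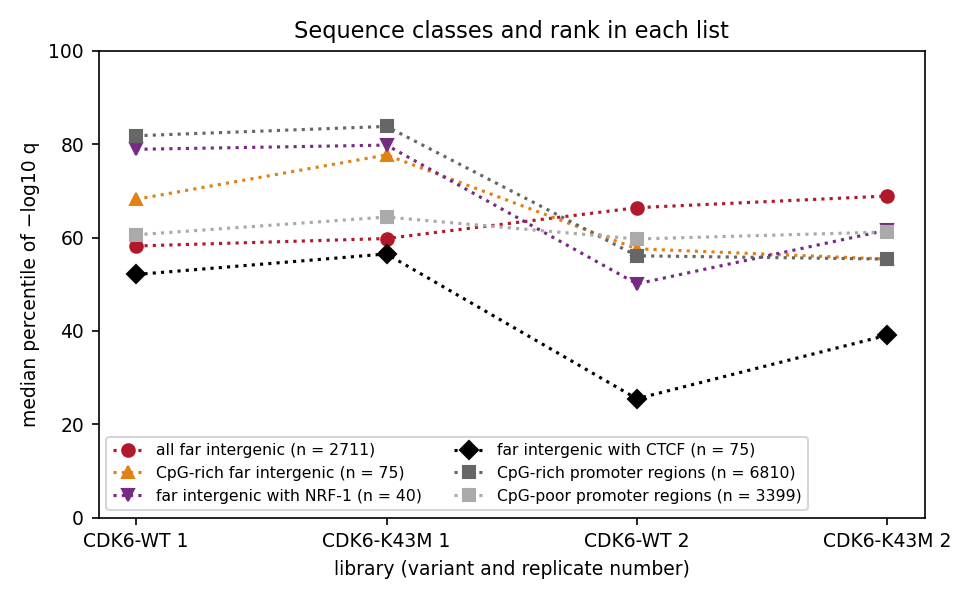
Median percentile of −log10 q (y axis) in each library (x axis) for all far intergenic regions, for those that are CpG-rich or hold the NRF-1 or the CTCF motif, and for CpG-rich and CpG-poor promoter regions, with their numbers in the legend. The median of all far intergenic regions is higher in replicate 2 (66.4 and 68.9) than in replicate 1 (58.2 and 59.8), whereas that of those with CTCF is lower (25.5 and 39.1 against 52.1 and 56.5).

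The median rank of these regions differed less between the variants than between replicate numbers, whereas the number with a peak differed more. CDK6-WT replicates 1 and 2 had a peak at 2429 and 2465 members, and CDK6-K43M replicates 1 and 2 at 2601 and 2504, so that the groups did not overlap. Members were chosen by a peak in at least 3 of the 4 lists. The counts thus restate which list the 845 members with 3 peaks lacked, and their test decides nothing about the variants. Over all shared regions the counts were 21314 and 20877 in CDK6-WT and 22282 and 20822 in CDK6-K43M, which do overlap, and the CDK6-K43M lists were the longer ones (39797 and 37304 peaks against 35189 and 34729). CDK6-K43M had 2552 ± 68.6 and CDK6-WT 2447 ± 25.5 (SD, n = 2 each), a difference of 106 (exact permutation p = 0.333, two-sided), with 172 more in replicate 1 and 39.0 more in replicate 2. When peaks under a −log10 q of 10 were left out, the difference was -7.50. The median percentile was higher in CDK6-K43M by 2.08 points (64.4 ± 6.44 and 62.3 ± 5.81, SD, n = 2 each, exact permutation p = 0.667), by 1.63 points within replicate 1 and 2.52 points within replicate 2. The medians of all shared regions were also higher in CDK6-K43M, at 68.5 against 65.9 in replicate 1 and 64.0 against 62.5 in replicate 2. Without CDK6-WT replicate 1 the sign turned (-3.12). This difference was smaller than the SD between replicate libraries of either variant.

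At single members, 211 of 1866 (11.3%) had both CDK6-K43M percentiles above both CDK6-WT percentiles, against 9.80% of all shared regions with 4 peaks, and 102 (5.47%) the reverse, against 5.08%. These shares are near those of all regions. The counts were 111 and 87 at a minimum −log10 q of 5 and 42 and 45 at a minimum of 10, so that the order turned at the higher minimum. With 1 library left out, 1 percentile is compared with 2, and the counts rose to 565 to 802 and 442 to 659, respectively, and without CDK6-WT replicate 1 their order turned (565 and 659). Reads at the summit, scaled by the factor recovered for each list, were compared within a replicate number. The factors were 0.97 and 0.92 in CDK6-WT replicates 1 and 2 and 0.81 and 1.0 in CDK6-K43M, the last being the highest value allowed. Whether they bring the libraries to the same depth was not tested. The median log2 ratio of CDK6-K43M to CDK6-WT was 0.07 in replicate 1 and -0.04 in replicate 2, and 90% of members lay between -0.48 and 0.63 in replicate 1 and between -0.64 and 0.54 in replicate 2. The ratios of the 2 replicate numbers had a Pearson r of 0.018 over the 1866 regions.

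Scaled reads were at least 1.5-fold higher in CDK6-K43M in both replicate numbers at 5 members (0.268%, against 0.269% of all shared regions with 4 peaks) and at least 1.5-fold lower at 3 (0.161%, against 0.122%). The 5 lay near Efna5, Il21, Cartpt, Zfp706 and Ier5, and the 3 near Fam49a, Slc24a2 and Cd2ap. All 8 are named because they passed that fold, after their values were seen. The Ier5 member, 92899 bp from the start of this immediate early gene, had 23 and 14 reads in CDK6-WT replicates 1 and 2 and 50 and 25 reads in CDK6-K43M, with log2 ratios of 0.86 and 0.96. The Slc24a2 member had 18 and 30 reads in CDK6-WT and 12 and 13 in CDK6-K43M, with log2 ratios of -0.84 and -1.09. Both were among the 3 members with the largest percentile difference in their direction. The others were near Cenpc1 and Rps6ka1, higher in CDK6-K43M, and near Plxnc1 and Zfp959, higher in CDK6-WT. At the Cenpc1 member, near the gene of a centromere protein, the percentiles were 7.99 and 52.6 in CDK6-WT and 84.9 and 84.0 in CDK6-K43M. At the Plxnc1 member they were 86.8 and 81.8 in CDK6-WT and 25 and 60.6 in CDK6-K43M. These members were chosen for their difference, and their values are a description.

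**Figure D5:**
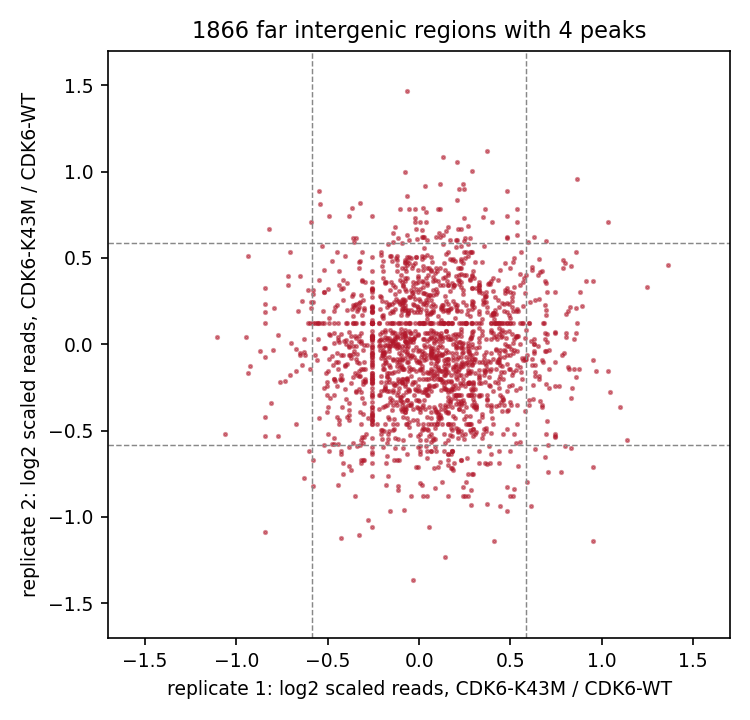
Log2 ratio of scaled summit reads, CDK6-K43M over CDK6-WT, in replicate 1 (x axis) and replicate 2 (y axis) for the 1866 far intergenic regions with 4 peaks, 1 point per region. Dashed lines mark 1.5-fold. The cloud has no slope (Pearson r 0.018), with 5 points beyond both lines at the upper right and 3 at the lower left, and its straight rows of points come from whole read numbers.

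The regions were spread over the genome at a median of 21420 bp from the nearest transcript start of any kind (25th to 75th percentile 14595 to 36881 bp) and 38227 bp from the nearest protein-coding start. The nearest start belonged to a protein-coding gene for 1157 members (42.7%), to a lincRNA for 525 and to a processed pseudogene for 520, and 1505 members (55.5%) lay upstream of their nearest protein-coding start. Members 10000 to 20000 bp from any start (n = 1234) had median percentiles of 59.0 and 64.7 in CDK6-WT and 60.9 and 67.2 in CDK6-K43M, and those 50000 to 100000 bp away (n = 314) had 58.0 and 67.5 in CDK6-WT and 60.1 and 69.4 in CDK6-K43M. Those 20000 to 50000 bp away (n = 1052) had 58.3 and 67.9 in CDK6-WT and 59.3 and 70.5 in CDK6-K43M. The 20 members beyond 200000 bp had 43.7 and 64.1 in CDK6-WT and 47.7 and 73.9 in CDK6-K43M. The farthest, on chromosome 11, lay 515493 bp from the pseudogene Gm12005 and had 24, 14 and 26 summit reads in CDK6-WT replicates 1 and 2 and CDK6-K43M replicate 1 and no peak in CDK6-K43M replicate 2.

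Nearly 50% of the members had a neighbour. With a limit of 12.5 kb between summits, 1352 members (49.9%) fell into 528 runs. The largest runs held 8 members over 21021 bp of chromosome 5 (118359455 to 118380476), with 2410131K14Rik as the nearest protein-coding gene at 114228 bp, 8 members over 30416 bp of chromosome 19 nearest to Scd1 and Scd4, which encode stearoyl-CoA desaturases, and 7 members over 11402 bp of chromosome 5, for which the nearest protein-coding start, of the deubiquitinase gene Usp12, lay 70334 bp away. The first run had median percentiles of 71.6 and 83.9 in CDK6-WT and 67.6 and 87.0 in CDK6-K43M, above the median of all members in each library. The third run had 76.5 and 68.7 in CDK6-WT and 82.7 and 70.5 in CDK6-K43M. In the Scd run the values were 59.4 and 58.7 in CDK6-WT and 59.1 and 68.1 in CDK6-K43M.

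By nearest protein-coding start, 1499 of 21728 protein-coding genes (6.90%) had at least 1 far intergenic region. The most belonged to Foxo1, which encodes a factor needed for recombinase expression in early B cells, with 15 members, all downstream of its start at distances of 122863 to 304466 bp and 13 of them with 4 peaks. The strongest had 55 and 39 summit reads in CDK6-WT and 79 and 33 in CDK6-K43M, with percentiles of 97.8, 92.8, 99.4 and 90.5. Cxcr4, the chemokine receptor that holds B-cell precursors in the bone marrow, had 12 members, 11 of them upstream. The strongest of these carried 35 and 38 reads in CDK6-WT and 65 and 23 in CDK6-K43M, and no exact match to the motifs listed above. 2410131K14Rik had 11 members, 8 of them with 4 peaks. Chd7 and Lrrc8d had 10 each, Fam49a, Irf2bp2 and Tle3 had 9 each, and Nuak1, Runx1 and 1 further gene had 8 each.

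Many genes of the B lineage were among the nearest genes. Of 30 B-lineage transcription factor genes, 19 (63.3%, against 6.90% of all protein-coding genes) were nearest to at least 1 member, with 69 members in all and 13.1 members per Mb of far intergenic DNA assigned to them, against 2.77 per Mb overall. Runx1 had 8 members, all upstream of its start and all with 4 peaks, and Bach2 had 7. Bcl11a and Ebf1 had 6 each, Runx3 and Zeb1 4 each, and Pax5, which fixes B-cell identity, had 2 at 17211 and 18724 bp upstream. Bcl6, Ets1, Id3, Lef1, Mef2c and Zeb2 also had 2 each, and Fli1, Id2, Irf4, Myb and Sox4 had 1 each.

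Among 30 B-lineage receptor and recombination genes, 9 (30%) were nearest to a member, with 28 members and 18.3 per Mb. Besides Cxcr4 these were Il7r with 5 members, the kinase gene Syk with 3, Cd74 and Cd93 with 2 each, and Cd34, Cd38, Cr2 and Dntt with 1 each. The strongest member near Il7r, which encodes the interleukin-7 receptor of B-cell precursors, had a mean percentile of 93.4. Among 30 cell cycle and leukaemia growth genes, 12 (40%) were nearest to a member, with 29 members and 18.8 per Mb. Socs1, a feedback inhibitor of JAK-STAT signalling, had 7 within 10679 to 19159 bp downstream of its start. Myc and Mycn had 4 each, Egr1 and Vegfa 3 each, Ccnd2 2, and Ccnd1, Ccne1, Cdkn2b, Cish, E2f3 and Cdk6 itself 1 each. The member near Cish, another STAT-induced inhibitor, had a mean percentile of 95.5, and the one 94140 bp upstream of Cdk6 had 33.5.

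Fewer genes of the other lists were nearest to a member than of the lists above, although the myeloid and erythroid list was as dense per Mb as the B-lineage factors. Of 20 T-lineage genes 3 (Ifng, Lat and Tcf7) were nearest to 1 member each, at 2.05 members per Mb. Of 20 myeloid and erythroid genes 2 (10.0%) were nearest to a member, with 4 members near Lmo2 and 1 near Csf2ra. This is 14.2 per Mb of only 0.351 Mb. Of 20 genes of non-blood tissues 0 were, over 2.11 Mb of far intergenic DNA. The nearest start is a label of position and does not show which gene a region acts on, and the lists were drawn up with earlier results of these data known, so the shares are a description.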

How the data were processed

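Anti-HA ChIP-seq was analysed in 4 libraries, grouped by their titles, and the 2 input samples were not analysed here. For each library on its own, the authors trimmed with Trimmomatic 0.36, aligned to mm10 (BWA 0.7.15), dropped blacklisted, multimapping and low-quality reads, and ran MACS2 2.1.0. Per peak, the deposited lists hold the fold enrichment at the summit over local background (a ratio), −log10 p-values and q-values, a score derived from the −log10 q, and the summit offset.

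Peaks sharing 1 bp were merged. Percentiles rank the −log10 q within a list, from the strongest peak per region. Reads at each summit were solved from fold enrichment and −log10 p, where 100.0% of peaks gave a whole number within 0.001. Medians were 20, 18, 23 and 15 reads in CDK6-WT replicates 1 and 2 and CDK6-K43M replicates 1 and 2. The merging, read recovery, permutation tests and motif search were tested on simulated data. Sequences came from RefSeq's GRCm38.p6 and genes from GENCODE M21.

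Exact permutation tests ran over libraries, with a smallest p of 0.333 for 2 against 2 and 0.13 for 4 signs. Intervals of 95% (Wilson for shares, log scale for ratios) cover counting error only. Regions named are the 8 with 4 peaks and the highest mean percentile, the 3 per variant with the largest difference among those without overlap, the farthest from a start, the 3 largest runs and the strongest per motif. Genes named are the 10 nearest to most members, of which 1 is not reported here, and the listed genes nearest to any. The members, lists and motifs were chosen with earlier results of these data known. Alternatives were other −log10 q minimums, distances, merging rules, list numbers, motif windows and controls, the replicate number as a block and each library left out. Software was Python 3.11.15 with pandas 2.3.3, numpy 2.4.6, pysam 0.24.0 and scipy 1.17.1.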

Additional observations from a re-analysis of the deposited data

Results flagged for a closer look

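The far intergenic regions differed from promoter regions with opposite signs in the 2 replicate numbers, in both variants. Their median percentile minus that of promoters was lower in replicate 1 and higher in replicate 2, a shift of 28.8 points. The corresponding shift was 3.01 for median fold enrichment and 202 bp for median peak width. Against distal gene-body regions the signs were the other way round, and the shifts from replicate 1 to replicate 2 were -9.22 percentile points, -0.854 in fold enrichment and -58.5 bp in width. Each shift was tested by exact permutation of the 4 libraries and had p = 0.333, the smallest that 2 libraries against 2 allow. The replicate number moved with these values, and what it stands for is not given in the sources used here, so its part was not tested.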

How the results depend on the processing

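Of 184 values recomputed under 18 settings, 150 kept their direction or size. The sign of members minus promoters was kept in every library under all 13 settings that recomputed it, for percentile, fold enrichment and width. Against distal gene-body percentiles it was kept under 12 of 13, the exception being a minimum −log10 q of 10 in CDK6-WT replicate 1. The difference in members with a peak between variants turned to -7.50 at a minimum −log10 q of 10, and that between replicate numbers from -30.5 to 4.50 at 50000 bp. The number of members fell to 926 at a minimum −log10 q of 10 and to 425 at 50000 bp. The share with 4 peaks was 66.0% and 57.1% at minimums of 5 and 10, 66.8% at 50000 bp and 63.7% with extended summits. Members without overlap that were higher in CDK6-K43M numbered 111 and 42 at minimums of 5 and 10 and 30 at 50000 bp, and those higher in CDK6-WT 45 at a minimum of 10 and 16 at 50000 bp.

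The RUNX summit to flank ratio (2.50) was 3.49 at a minimum of 10, 3.05 at 50000 bp, 3.01 with 4 peaks, 3.05 with 50 bp windows and 3.58 against shuffled windows. The ETS-C ratio (3.95) was 5.12 with 50 bp windows. The NRF-1 ratio (4.44) was 8.0 with 50 bp windows, 8.0 with more distant flanks and 2.22 against shuffled windows. At 50000 bp it could not be given, since a share was 0. Leaving out 1 library gave variant differences in median percentile of -3.12 to 6.68, members minus promoters of -7.41 to 1.00 points, 565 to 802 members without overlap that were higher in CDK6-K43M and 442 to 659 higher in CDK6-WT (1 percentile against 2), and RUNX ratios of 2.62 to 2.92. Counts per list are not defined there, since members then need a peak in all 3 lists.

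The labels do not say that same-numbered libraries are paired. With the replicate number as a block, the variant differences were 106 members with a peak and 2.08 percentile points, each with an exact sign-flip permutation p of 0.50, the smallest that 2 pairs allow. Causes of the changes above were not tested. Medians of 15 to 23 reads per summit limit what can be seen at single regions.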

Other observations

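The density of far intergenic regions differed between chromosomes. Per Mb of DNA outside genes and at least 10000 bp from any transcript start it was 6.02 on chromosome 19 (106 members), 4.64 on chromosome 11 (177 members) and 3.99 on chromosome 2 (245 members), against 2.77 over all 978 Mb. Chromosome X had 0.398 per Mb (34 members in 85.5 Mb), and its members had a median mean percentile of 46.0 against 58.7 overall.

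A second annotation of the same assembly, RefSeq, placed 134 members (4.94%) within 1000 bp of a transcript start and 572 (21.1%) within 10000 bp, and 396 inside a gene body. The 134 had median percentiles of 60.6 and 61.1 in CDK6-WT replicates 1 and 2 and 67.9 and 66.6 in CDK6-K43M. The 2003 members (73.9%) that were far from genes in both annotations had 57.4 and 66.4 in CDK6-WT and 58.7 and 68.9 in CDK6-K43M, so their medians were also higher in both replicate 2 libraries.

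Regions in fewer lists were far intergenic more often when they came from replicate 2. Of regions with a peak in both replicate 2 lists and no other, 1256 of 6259 (20.1%) were far intergenic, against 942 of 7350 (12.8%) of those in both replicate 1 lists and no other and 1866 of 16376 (11.4%) of those in all 4.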
